A study of Mus musculus with 20 samples.

Results

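The genes described here encode splicing factors and hnRNP proteins, chosen by symbol. They are all genes on the array whose single annotated symbol begins with Hnrnp, Srsf, Snrp, Sf3a, Sf3b, U2af or Prpf. Symbols alone decided membership, but the list was chosen with earlier results of these data known. The rule found 52 of the 8251 genes that had a probe set with 1 symbol, measured by 71 probe sets, and the brightest probe set stood for each gene. By name they comprised 16 hnRNP proteins, 9 SR proteins, 8 snRNP proteins, 8 SF3 subunits, 3 U2AF subunits and 8 PRPF factors. The snRNP class held 1 gene annotated as a pseudogene, Snrp1c-ps2.

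RNA was taken from CD8 T lymphocytes of OT-1 TCR transgenic mice of the C57Bl6 strain, aged 6 to 8 weeks. The OT-1 receptor binds H-2Kb loaded with a peptide of ovalbumin. CD44lo CD8+ cells were negatively enriched from lymph nodes and either taken at 0 h (naive, 3 arrays) or cultured with latex microspheres of 5 um that carried the peptide complex and B7-1 (antigen and B7, written Ag-B7). All cultures received human rIL-2, and murine rIL-12, universal type I IFN (written IFNa/b) or neither was added. Ag-B7 alone had 4 arrays at 48 h, and Ag-B7 with IL-12 and Ag-B7 with IFNa/b had 3 each at that time. Each of these treatments had 1 array at 24 h and 1 at 72 h. Ag-B7 with trichostatin A (TSA, an inhibitor of histone deacetylases) had 1 array, at 72 h. No culture lacked Ag-B7 or IL-2, so the effects of antigen, B7, IL-2 and time in culture cannot be told apart against naive cells. The labels call the replicates biological and do not say which animals or cultures they came from. The 11 CD8 T cell identity genes on the array summed to 78104 to 139668 intensity units on naive arrays and to 85370 to 107960 on Ag-B7 arrays at 48 h.

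Introns are removed from pre-mRNA by the spliceosome, which is built from small nuclear ribonucleoproteins (snRNPs) and many further proteins. U1 snRNP marks the 5′ splice site, U2AF binds the end of the intron, and U2 snRNP, with its SF3A and SF3B complexes, takes the branch point. PRPF factors join with the tri-snRNP and the catalytic complex, while SR proteins and hnRNP proteins bind exons and introns and often act in opposite directions on the choice of exon. In T cells the best known switch of this kind is CD45 (Ptprc), whose variable exons are skipped after activation under the control of hnRNP LL and hnRNP L.

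Promoter sequences were found in the RefSeq table for 46 of the 52 genes, as 58 windows of 300 bases from 250 bases before to 50 after an annotated start (build GRCm38.p6). Of 6 motifs searched on both strands, the letters CCGGAAGT (reverse ACTTCCGG), an ETS factor motif, were in 20.7% of the member windows and 3.89% of all 32851 windows. The GC box GGGCGG was in 69.0% against 35.7%, and the CCAAT box CCAAT was in 50% against 37.4%. For the E-box CACGTG the shares were 6.9% and 7.15%, for the TATA box TATAAA 8.62% and 13.6%, and for the CRE TGACGTCA 1.72% and 1.79%. The median GC content was 60.2% in member windows and 52.7% in all windows, so the comparison was not one of equal base composition. Among member genes, 10 held the ETS letters. They were in 23.3% of 30 windows of members called higher in Ag-B7 cells at 48 h and in 18.5% of 27 windows of the other tested members. In the same 2 sets, the GC box was in 53.3% and 85.2%, the CCAAT box in 56.7% and 44.4% and the TATA box in 13.3% and 3.7%. For the E-box the shares were 6.67% and 3.7%, and for the CRE 3.33% and 0%. Some genes had several windows, and these splits were not tested. The bases before the start of 4 members are printed 5′ to 3′ on the gene's strand because they show promoters with and without the ETS letters and both directions of change, with the letters of any searched motif in capitals. They are Srsf1 (chr11:88047123-88047372, plus strand), the member with the largest rise, Hnrnpd (chr5:99978939-99979188, minus strand) and Sf3a3 (chr4:124714611-124714860, plus strand), which rose and hold the ETS letters, and Hnrnpa1 (chr15:103240147-103240396, plus strand), which was lower.
Srsf1: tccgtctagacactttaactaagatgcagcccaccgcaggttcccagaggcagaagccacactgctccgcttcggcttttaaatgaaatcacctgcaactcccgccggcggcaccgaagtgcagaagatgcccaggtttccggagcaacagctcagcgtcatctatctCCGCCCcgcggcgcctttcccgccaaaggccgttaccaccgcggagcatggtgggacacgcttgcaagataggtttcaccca
Hnrnpd: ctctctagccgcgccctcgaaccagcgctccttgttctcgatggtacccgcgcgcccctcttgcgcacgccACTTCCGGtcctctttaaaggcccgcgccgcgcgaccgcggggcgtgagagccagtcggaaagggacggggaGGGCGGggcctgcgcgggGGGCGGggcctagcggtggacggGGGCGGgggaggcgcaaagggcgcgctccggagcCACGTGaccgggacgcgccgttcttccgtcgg
Sf3a3: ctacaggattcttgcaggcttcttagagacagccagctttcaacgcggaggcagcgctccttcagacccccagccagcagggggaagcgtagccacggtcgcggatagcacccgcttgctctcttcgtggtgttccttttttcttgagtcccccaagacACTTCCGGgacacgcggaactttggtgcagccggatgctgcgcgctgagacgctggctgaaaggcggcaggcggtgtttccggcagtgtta
Hnrnpa1: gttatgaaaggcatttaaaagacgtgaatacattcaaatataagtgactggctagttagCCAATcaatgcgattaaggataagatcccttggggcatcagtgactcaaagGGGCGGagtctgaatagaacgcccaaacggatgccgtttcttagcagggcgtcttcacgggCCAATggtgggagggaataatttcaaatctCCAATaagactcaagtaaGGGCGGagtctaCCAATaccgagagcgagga
The ETS letters began 179 bases before the start in Hnrnpd and 91 bases before it in Sf3a3. The Srsf1 stretch held 1 GC box and none of the other motifs, and the Hnrnpa1 stretch held 4 CCAAT boxes and 2 GC boxes.

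The comparison of Ag-B7 cells at 48 h with naive cells asks how culture with antigen, B7 and IL-2, without IL-12 or IFNa/b, differs from the naive state. Of the 51 members that passed the filter on dim genes, 27 rose, 2 fell and 22 were not called (limma, Benjamini-Hochberg adjusted p below 0.05 over 6279 genes). Over all genes tested, 26.1% were called higher and 35.6% lower, 61.7% in either direction. The median log2 difference was 0.54 over the members and -0.23 over all genes. Arrays of the 2 groups did not overlap for 22 of the members, against 56% of all genes. One member, Prpf39, was below the filter, at 54.6 to 94.6 intensity units on naive and Ag-B7 48 h arrays, and was not tested. Errors after ± are standard errors from the fit, and log2 differences are on the log2(intensity + 46.4) scale, on which changes of dim genes come out too small. In these bulk samples, fewer cells of a type and less RNA per cell cannot be told apart.

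**Figure D1:**
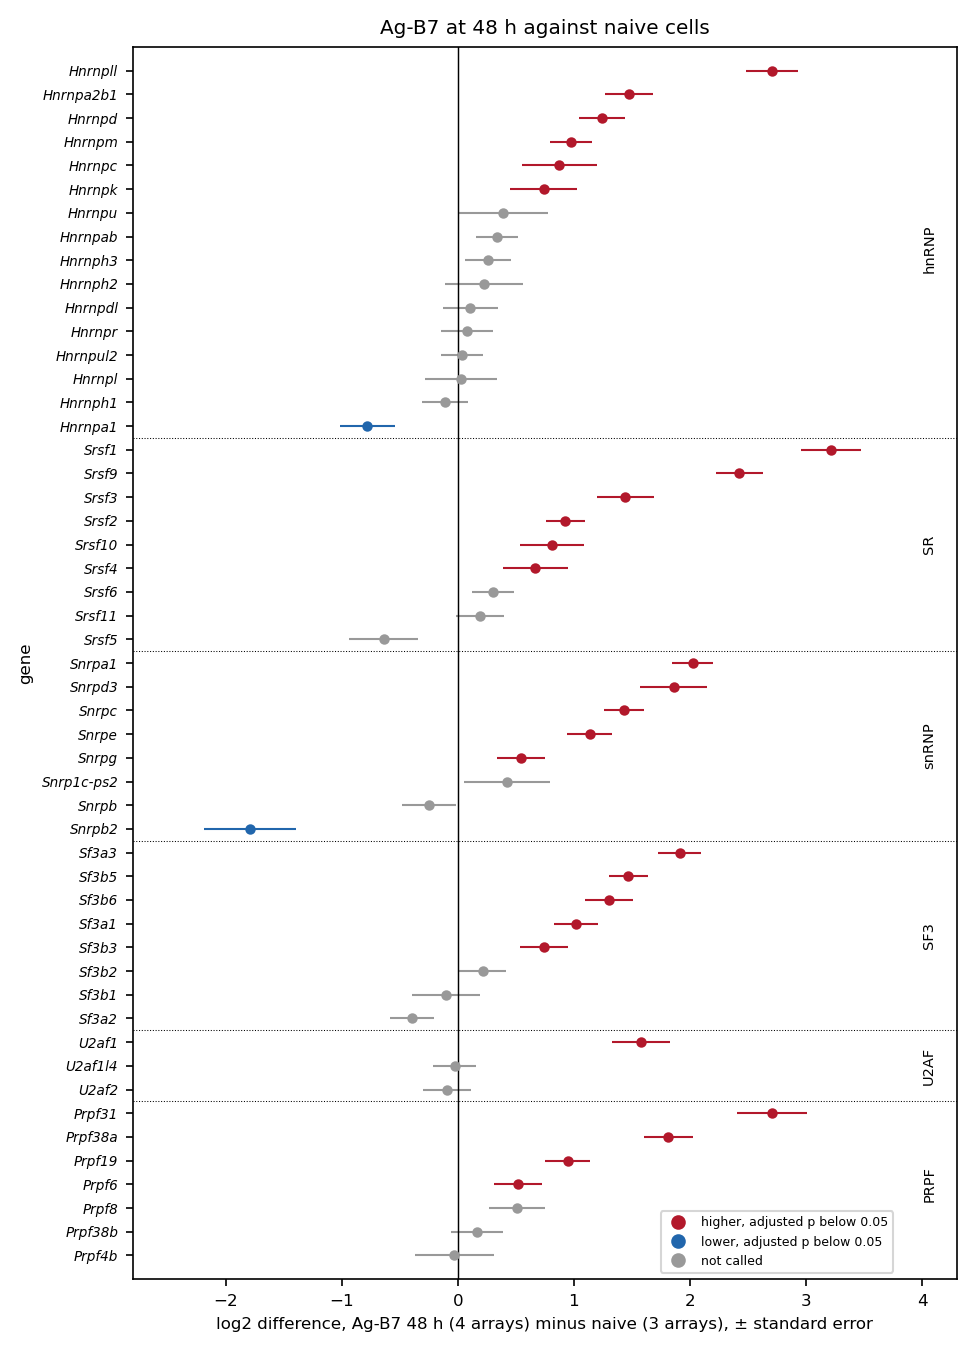
Log2 difference between Ag-B7 arrays at 48 h (n = 4) and naive arrays (n = 3) for the 51 tested members, with bars for the standard error of the limma fit, grouped by class. Red points were called higher (27), blue points lower (2), and grey points were not called (22).

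SR proteins carry an arginine-serine rich domain and mostly promote exon inclusion. Of 9, 6 rose and none fell at 48 h. Srsf1, the founding member of the family, measured 296, 175 and 188 intensity units on the naive arrays and 2652, 2125, 1755 and 3222 on the Ag-B7 arrays. The groups lay far apart, and Srsf1 rose by 3.21 ± 0.26 on the log2 scale, or 9.28-fold (adjusted p = 6.27e-08). Srsf9 rose 5.36-fold, from 1994, 962 and 1699 to 7999, 8256, 8103 and 8305 (log2 difference 2.42 ± 0.20, adjusted p = 9.24e-08). The 4 Srsf9 values at 48 h were close together and each was above every naive value. Srsf3, a short SR protein that also takes part in mRNA export, rose by 1.44 ± 0.24 from 2638, 1531 and 2732 to 7745, 5257, 4508 and 7745, again without overlap. Srsf2, a marker of nuclear speckles, rose by 0.93 ± 0.17 from 13063, 11273 and 12587 to 25919.8, 22228, 26867 and 19350.3. Srsf10 (0.81 ± 0.28) and Srsf4 (0.67 ± 0.28, adjusted p = 0.0468) also rose, but their arrays overlapped with the naive ones. Srsf5 lay at 15498, 5384 and 10409 on naive arrays and 8694, 5179, 4852 and 6397 at 48 h, a log2 difference of -0.64 ± 0.30 that was not called (adjusted p = 0.0713). The remaining differences were 0.30 ± 0.18 for Srsf6 and 0.19 ± 0.21 for Srsf11, neither called.

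Among hnRNP proteins, which coat nascent RNA and often repress nearby splice sites, 6 of 16 rose and 1 fell. Hnrnpll, whose product represses the variable exons of Ptprc, measured 556, 518 and 497 on naive arrays and 2943, 3399, 3367 and 5385 on Ag-B7 arrays. It rose 6.53-fold (log2 difference 2.71 ± 0.23, adjusted p = 9.24e-08), with no overlap. Its relative Hnrnpl, which binds the same kind of silencer, had 2125, 1076 and 1490.2 against 1955, 907, 2035 and 1529, a difference of 0.03 ± 0.31 that was not called. Hnrnpa2b1 rose by 1.47 ± 0.21, from 9524, 5259 and 9809 to 22910.5, 21846, 21757 and 21540.3. Hnrnpd, also known as AUF1 for its binding to AU-rich mRNA ends, rose by 1.24 ± 0.20 from 4689, 2793 and 3297 to 10139.8, 7705, 6759 and 9202. Both groups were separate for each of these genes, as they were for Hnrnpm (0.97 ± 0.18). Hnrnpc (0.88 ± 0.33) and Hnrnpk (0.74 ± 0.29, adjusted p = 0.0356) rose with overlapping arrays. Hnrnpa1 encodes a splicing repressor that counteracts Srsf1. Its probe set measured 2109, 1232 and 1640.1 on naive arrays and 1111, 691, 1002 and 952 on Ag-B7 arrays, and fell by 0.78 on the log2 scale (SE 0.23, adjusted p = 0.00897). Every Ag-B7 array was below every naive array, but the call was lost with each array centred on its median (-0.13, adjusted p = 0.689), and the sign turned with scaling to the spike-in controls (0.99, adjusted p = 0.0659). The annotation gives 2 further probe sets to Hnrnpa1 together with other genes, so they were not used, and their differences were -0.27 and 1.05. By the probe sets used, the 9 hnRNP genes that were not called had differences from -0.11 ± 0.20 for Hnrnph1 to 0.39 ± 0.39 for Hnrnpu. Hnrnpu was dim at 179 to 518 units in these 2 groups.

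The snRNP proteins rose in 5 cases of 8 and fell in 1. Snrpa1 encodes the A′ protein of U2 snRNP. It measured 1171, 879 and 831 on naive arrays and 4140.4, 3735, 3697 and 4498 at 48 h, and rose 4.07-fold (log2 difference 2.02 ± 0.18, adjusted p = 1.32e-07). Snrpb2 encodes the B″ protein, which binds U2 RNA together with A′, and was the member with the lowest difference. It measured 530.1, 1238 and 1070.0 on naive arrays and 167, 195, 576 and 124 at 48 h, with replicate 3 of the Ag-B7 group above the lowest naive array. It fell by 1.79 on the log2 scale (SE 0.40, adjusted p = 0.00112), and the difference was -0.019 (adjusted p = 0.975) with spike-in scaling. A second Snrpb2 probe set gave -0.23. The Sm ring proteins are shared by all spliceosomal snRNPs but U6. Of their genes among the members, only Snrpb was not called higher. Snrpd3 rose by 1.86 ± 0.29, from 2675, 698 and 1365 to 5623, 4321, 5171 and 5388. Snrpe rose by 1.13 ± 0.19 and Snrpg by 0.54 ± 0.21, while Snrpb had 17834, 38731 and 22677 on naive arrays and 21479.6, 20685, 26108 and 16992 at 48 h and was not called (-0.25 ± 0.23). Probe sets annotated to Snrpd1 and to Snrpd2 together with another gene were not used, and their differences were 1.34 and 2.12. Snrpc, whose product helps U1 snRNP to hold the 5′ splice site, rose by 1.43 ± 0.17 with separate groups. The pseudogene Snrp1c-ps2 was not called (0.42 ± 0.37), and its naive values of 539, 2622 and 2323 covered a wide range.

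The SF3A and SF3B complexes anchor U2 snRNP at the branch point, and 5 of their 8 measured subunits rose while none fell. Sf3a3 measured 1966, 1164 and 1536 on naive arrays and 6065, 6379.9, 5619.6 and 5394 on Ag-B7 arrays, and rose 3.76-fold (log2 difference 1.91 ± 0.19, adjusted p = 4.56e-07). Sf3b5 rose by 1.47 ± 0.17, Sf3b6, whose product contacts the branch point, by 1.30 ± 0.21, Sf3a1 by 1.02 ± 0.19 and Sf3b3 by 0.74 ± 0.21. Arrays of the 2 groups were separate for all of these genes. Sf3b1, the largest SF3B subunit, had 6378, 2943 and 5578 against 5816, 3378, 4057 and 4664 and was not called (-0.10 ± 0.29). Sf3a2 (-0.40 ± 0.19) and Sf3b2 (0.21 ± 0.20) were not called either. Differences between the changes of subunits were not tested.

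U2af1, the small U2AF subunit that reads the AG at the intron's end, measured 5346, 2197 and 4788 on naive arrays and 11488, 12877, 9869 and 12163 at 48 h, and rose by 1.58 ± 0.25 (adjusted p = 6.46e-05). Its large partner U2af2, which binds the polypyrimidine tract, had 16446, 15918 and 11927 against 14594, 12204, 16148 and 12224, and its difference of -0.09 ± 0.21 was not called. The related U2af1l4 was not called (-0.03 ± 0.18), with 1359 to 1984 units on naive arrays. The small and large subunits are known to work as a heterodimer. Their mRNA levels did not move alike here, but the difference between the 2 changes was not tested.

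Of 7 tested PRPF factors, 4 rose and none fell. Prpf31, which helps to hold the tri-snRNP together, measured 563, 149.6 and 510.5 on naive arrays and 2340.1, 2245, 3033 and 2859 at 48 h, and rose 6.53-fold (log2 difference 2.71 ± 0.30, adjusted p = 1.82e-06). Prpf38a, needed for spliceosome activation, rose by 1.81 ± 0.21 from 1092, 566 and 1029 to 3081, 3754, 2679 and 3161. Both genes had separate groups. Prpf19, the ubiquitin ligase at the core of a complex named after it, rose by 0.95 ± 0.19 from 2655, 2036 and 2641 to 5509.8, 4695, 3771 and 5066. A dimmer second Prpf19 probe set went the other way (-1.83), and with the mean of both probe sets the difference was -0.44 (adjusted p = 0.135). Prpf6 rose by 0.52 ± 0.20 (adjusted p = 0.0359) with overlapping arrays. Prpf8, the large protein at the catalytic centre, had 4154, 2012 and 3497 against 4565, 3839, 3847 and 5617 and was not called (0.51 ± 0.24, adjusted p = 0.0742). Prpf38b (0.17 ± 0.22) and the kinase gene Prpf4b (-0.03 ± 0.34) were not called.

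Several properties of the arrays moved with this comparison. The ratio of 3′ to 5′ actin signal, a measure of RNA integrity, was 1.13, 2.06 and 1.61 on naive replicates 1, 2 and 3 and at most 1.15 on stimulated arrays. The mean of the members was 10.81 on naive replicate 2 and 11.37 and 11.20 on replicates 1 and 3 (log2 scale), and without replicate 2, 22 members rose and 3 fell. Of the B cell genes tested, 4 of 6 were lower at 48 h, and the 8 on the array summed to 11758 to 16849 on naive and 4788 to 10748 on Ag-B7 arrays. Of myeloid and dendritic genes, 5 of 6 were lower, with sums over 11 genes of 3818 to 11181 and 905 to 2560. All 3 tested stromal and endothelial genes were lower (sums over 6 genes 4552 to 11720.5 and 2076 to 3227), as were 1 of 2 erythroid and platelet genes (6105 to 14312 and 282 to 551) and the 1 tested CD4 and gamma-delta T cell gene (597 to 1361 and 83.8 to 682 over 2 genes). Neither of the 2 NK cell genes passed the filter (88.4 to 291 and 29.5 to 83.4). No marker was listed at 0, and the part of these differences in the members' change was not tested. Another scaling moved the median of all genes from -0.23 to 0.03 (quantile normalization), 0.41 (median centring) or 1.54 (spike-in scaling). Under these, 25, 40 and 49 members were called higher, where 30.9%, 40.6% and 64.1% of all genes were, and 4, 1 and 0 were called lower, where 26.1%, 15.9% and 0.908% were.

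Probe sets for other parts of a transcript, or for relatives, did not always give the same value. For tested members there were 18 further probe sets, of which 13 had the sign of the one used and 5 the opposite sign, in 1 case past 2-fold (Prpf19). The 3 other Srsf1 sets gave 1.90, 1.496 and, below the filter, -0.91. A second set gave 2.00 for Srsf2, -0.12 for Srsf3 and 0.04 for Hnrnpa2b1. Hnrnpab and Hnrnpul2 were not called by the sets used (0.34 and 0.04). Their second sets, dimmer but past the filter, gave 1.27 and 1.32. By Affymetrix naming, sets with the suffix s or f share probes with other transcripts (Srsf2 and Hnrnpdl, and Srsf3, Snrpe, Sf3a2, Sf3b2 and Snrp1c-ps2), and those with r were chosen with relaxed rules (Snrpb, Snrpb2 and Prpf39), so the values of these 10 members are less certain.

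**Figure D2:**
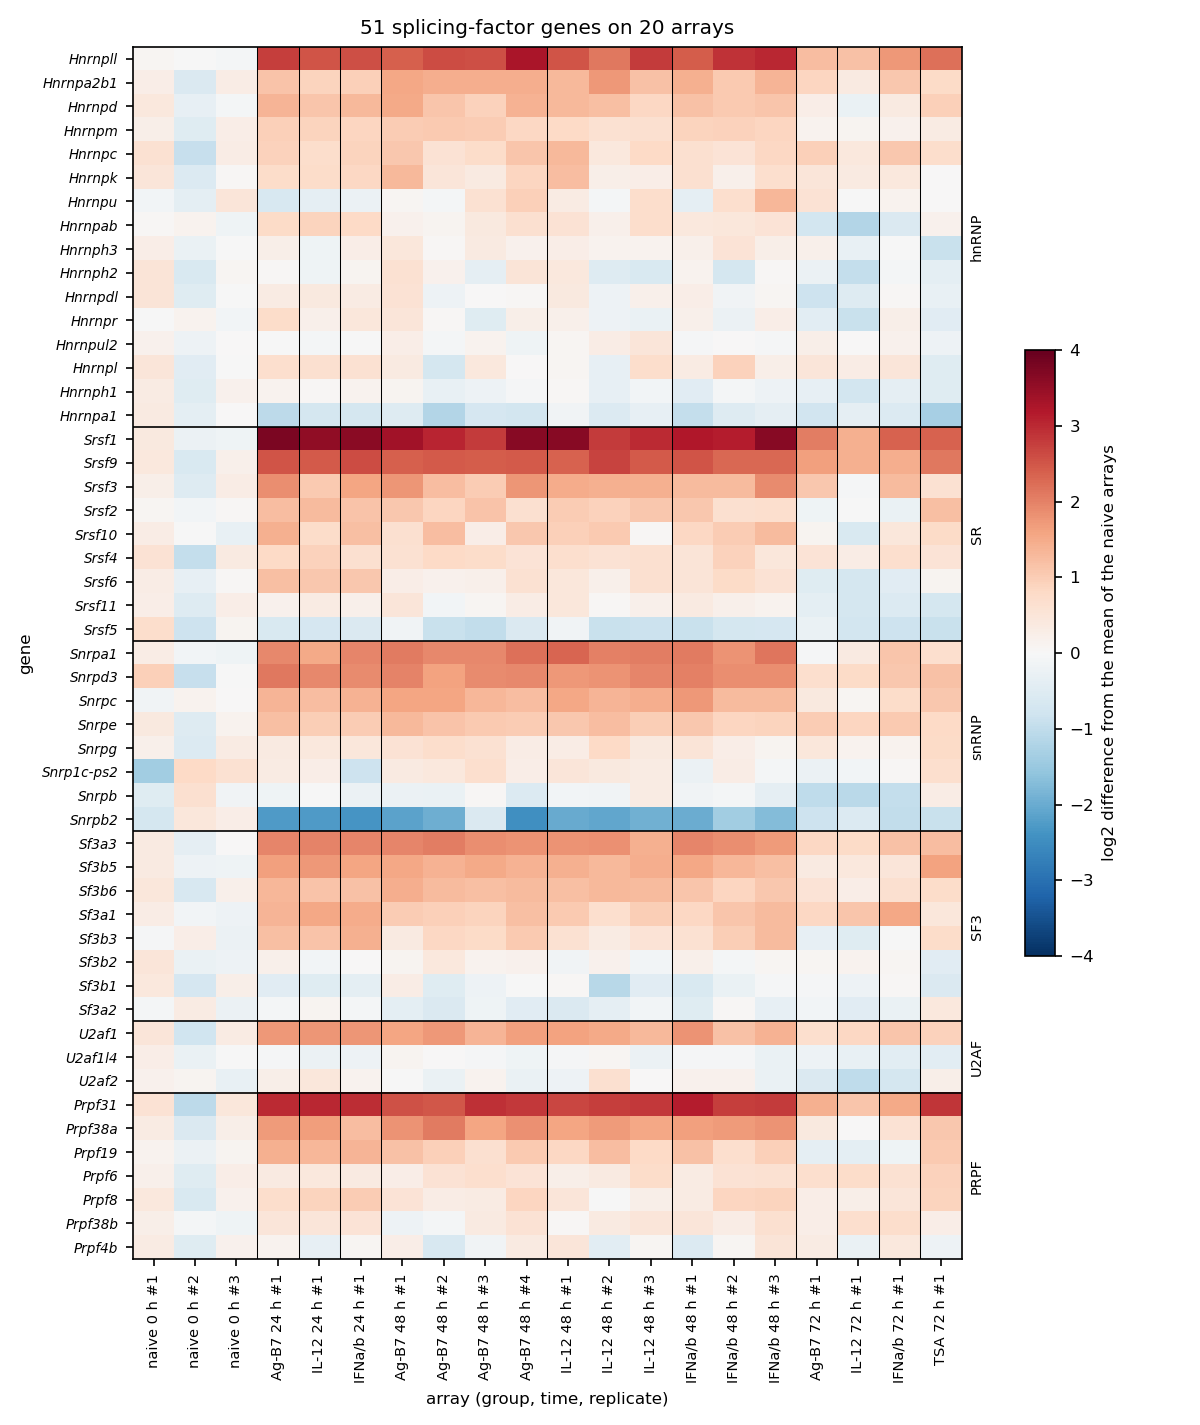
Log2 difference of each of 51 members (rows, by class and by the size of the change at 48 h) from the mean of the naive arrays, on each of 20 arrays (columns); red is higher and blue lower. Srsf1, Srsf9, Hnrnpll and Prpf31 are the deepest red rows, Snrpb2 is the blue row, and most red rows are paler on the 72 h arrays.

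Many members were also high at 24 h. On the single Ag-B7 array at 24 h, 22 members were more than 2-fold higher than the naive mean and 2 more than 2-fold lower. Over all genes the shares were 19.3% and 32.5%. The median was 0.76 over the members and -0.33 over all genes. Srsf1 measured 3531 units and Prpf31 3147, while Snrpb2 measured 148 (-2.27) and Hnrnpa1 769.5 (-1.03). With 1 array there is no replicate check on these values. To test for a change between 24 and 48 h, the 3 treatments were fitted together with treatment as an additive term, so that the arrays at 24 h (1 per treatment) stood as replicates of the time. This fit takes the change with time to be the same in each treatment. Over it, 4 members were higher at 24 h and 0 lower (all genes 6.04% higher and 6.9% lower). At an unadjusted p under 0.05, 12 were higher and 2 lower, with no share of all genes at that threshold to set them against. The 4 were Srsf6 (0.68 ± 0.12, adjusted p = 0.0017), Sf3b3 (0.52 ± 0.14), Sf3a1 (0.46 ± 0.14) and Prpf19 (0.43 ± 0.13, adjusted p = 0.0423). Srsf6 measured 10576, 9536 and 9707 at 24 h with Ag-B7, IL-12 and IFNa/b and 5445, 5069, 5185 and 6874 with Ag-B7 at 48 h, so the arrays were separate. Leaving out any of the 3 arrays at 24 h left 1 member called.

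Between 48 and 72 h many of the members fell. In the same fit, 26 of the 51 were lower at 72 h and 1 was higher, while 15.9% of all genes were lower and 20.3% higher. The median difference was -0.54 over the members and 0.15 over all genes. Lower in all 3 treatments were 32 members, a count with no share of all genes to set it against. Of the 26 called lower, 24 fell further with IL-12 than with IFNa/b, such as Srsf3 (-1.48 and -0.21) and Hnrnpa2b1 (-1.05 and -0.19). Hnrnpm and Srsf2 went the other way. This count has no share of all genes to set it against, and it rests on 1 array per treatment at 72 h. On those arrays the mean of the members minus that of all genes was 1.24 with IL-12 and 1.59 with IFNa/b. The fitted change averages over the treatments, and the difference between treatments was not tested. Leaving out 1 of the 3 arrays at 72 h gave 23 to 29 calls. By class, 7 of 9 SR proteins, 6 of 16 hnRNP proteins, 4 of 8 snRNP proteins, 4 of 8 SF3 subunits, 2 of 3 U2AF subunits and 3 of 7 PRPF factors fell. On the Ag-B7 array alone, 13 members were past 2-fold below the mean at 48 h (6.59% of all genes) and 0 above it (9.16%). Each array at 72 h can also be set against its own group at 48 h. The Ag-B7 array was below all 4 Ag-B7 arrays for 31 members (24.9% of all genes), the IL-12 array below all 3 of its group for 36 (26.6%), and the IFNa/b array below all 3 of its group for 25 (27%).

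Snrpa1 had the largest fall, 1.59 on the log2 scale (SE 0.17, adjusted p = 1.71e-06). It measured 919.9 at 72 h with Ag-B7, 1235 with IL-12 and 2079 with IFNa/b, after 3697 to 4498, 3983 to 4907 and 3392 to 4384 at 48 h. In Ag-B7 cells it was thus back in the naive range of 831 to 1171. Prpf31 fell by 1.43 (SE 0.13) to 1050.2, 821 and 1120.3 units, and Prpf38a by 1.39 (SE 0.13) to 1145, 872 and 1296. Prpf31 was still above every naive array, whereas Prpf38a overlapped with the naive values of 566 to 1092 on the IL-12 array. Srsf1 fell by 1.28 (SE 0.20) to 1022, 658 and 1292 units, which all exceeded the highest naive value of 296. Hnrnpll fell by 1.28 (SE 0.18) to 1288, 1232 and 1837, also above its naive values. Prpf19 fell by 1.26 (SE 0.13) and Hnrnpab, which binds RNA and single-stranded DNA, by 1.25 (SE 0.14). Prpf19 measured 1877, 1819.9 and 2154 and Hnrnpab 1873, 1377 and 2099.9 at 72 h, where their lowest naive values were 2036 and 2754.

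Some of the genes that fell from 48 to 72 h had not been called against naive cells with Ag-B7 alone. The 2 comparisons share the arrays at 48 h, so their values are given side by side only. Hnrnpab differed from naive by 0.34 ± 0.18 at 48 h in Ag-B7 cells, Srsf6 by 0.30, Srsf11 by 0.19, Hnrnpdl by 0.11, U2af2 by -0.09 and Snrpb by -0.25. From 48 to 72 h they fell by 1.25, 0.99, 0.76, 0.54, 0.78 and 0.87 on the log2 scale. Of these genes, Hnrnpab was called higher than naive at 48 h with IL-12 and with IFNa/b, and Srsf6 with IFNa/b. A second, dimmer Hnrnpab probe set differed from naive by 1.27 with Ag-B7 at 48 h. Snrpb2 was the 1 member that rose, by 1.03 ± 0.29 (adjusted p = 0.00997), to 478, 592 and 425 units with Ag-B7, IL-12 and IFNa/b. Without the IL-12 array at 72 h it was no longer called, and no member rose. Hnrnpa1 did not change by the test, with 928, 1242 and 1104 units at 72 h.

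**Figure D3:**
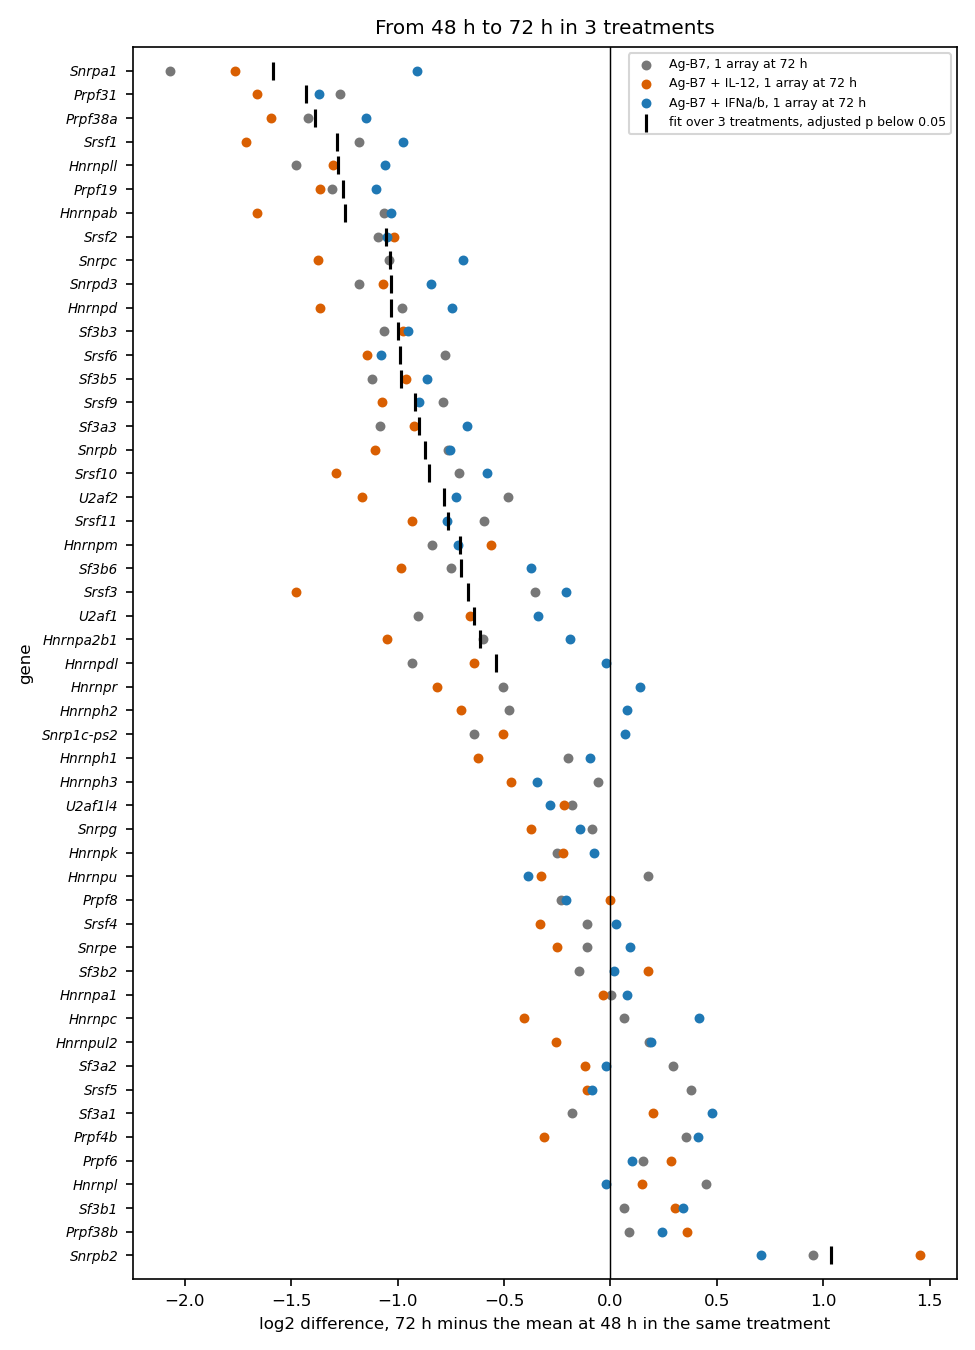
Log2 difference between the 72 h array and the mean at 48 h within Ag-B7, Ag-B7 with IL-12 and Ag-B7 with IFNa/b (coloured points, 1 array each at 72 h) for 51 members, ordered by the fitted difference; black bars mark the 27 members called in the fit over the 3 treatments. All 3 points lie left of 0 for the 26 members called lower and right of 0 for Snrpb2.

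**Figure D4:**
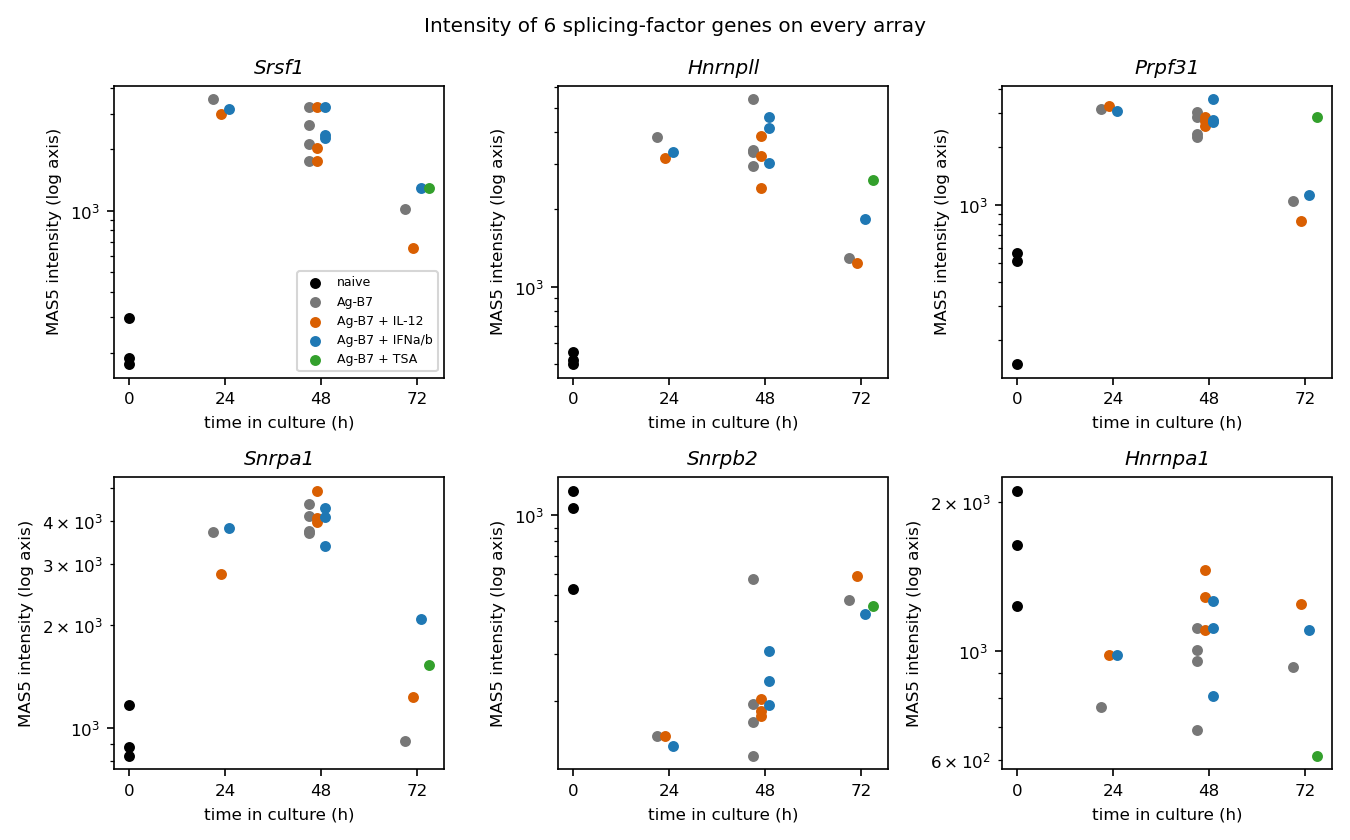
MAS5 intensity (log axis) of Srsf1, Hnrnpll, Prpf31, Snrpa1, Snrpb2 and Hnrnpa1 on every array against time in culture, coloured by treatment, each point 1 array. The first 4 genes are high at 24 and 48 h and lower at 72 h, except Prpf31 (2865) and Hnrnpll (2595) on the TSA array, which lie among the 48 h values. Snrpb2 runs the opposite way, and Hnrnpa1 is lower than in naive cells at 48 h with Ag-B7 (691 to 1111 against 1232 to 2109).

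Values of cell type markers also differed at 72 h. The 11 CD8 T cell identity genes summed to 134612 with Ag-B7, 110951 with IL-12, 103860 with IFNa/b and 100046 with TSA. At 48 h their sums were 85370 to 107960 with Ag-B7, 75997 to 96604 with IL-12 and 73934 to 92759 with IFNa/b. The 8 B cell genes summed to 16167 on the Ag-B7 array at 72 h, 7582 with IL-12, 12051 with IFNa/b and 5853 with TSA. At 48 h their sums were 4788 to 10748 with Ag-B7, 3781 to 5188 with IL-12 and 5016 to 7439 with IFNa/b. Myeloid and dendritic genes summed to 3258, 3615, 2351 and 2688 on the same arrays. At 48 h their sums were 905 to 2560 with Ag-B7, 1603 to 2058 with IL-12 and 1316 to 2297 with IFNa/b. The part of these markers in the fall was not tested. Actin ratios on stimulated arrays were 1.00 to 1.15.

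Few of all genes tested were called between the treatments at 48 h, and the members' count of 0 was near those shares. Of 51 members, 0 were called for IL-12 against Ag-B7, for IFNa/b against Ag-B7 or for IL-12 against IFNa/b (limma), where 0.621%, 0.43% and 0.94% of all genes were called. The shares called higher and lower were 0.382% and 0.239% for IL-12, 0.414% and 0.0159% for IFNa/b and 0.287% and 0.653% between the cytokines. At an unadjusted p under 0.05, 0 members differed in any of the 3 comparisons. The member differences lay between -0.46 and 0.44 for IL-12, -0.43 and 0.47 for IFNa/b and -0.45 and 0.40 between the cytokines. Arrays did not overlap for 1, 2 and 4 members, against 7.17%, 6.74% and 12.6% of all genes. The median standard deviation of a gene in the fit was 0.372, which with 3 or 4 arrays per group limits what could be seen.

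The members with the smallest p-values in the IL-12 comparison were Hnrnpa1 (0.44 ± 0.23), Hnrnpm (-0.29 ± 0.18) and Hnrnph2 (-0.46 ± 0.34), each at an adjusted p of 0.998. Hnrnpa1 measured 1459, 1099.5 and 1282 with IL-12 against 1111, 691, 1002 and 952 without, and the lowest IL-12 array was below the highest Ag-B7 array. Hnrnpm measured 7422, 6637 and 6693 with IL-12, each below the Ag-B7 values of 7587 to 8969.8. For IFNa/b they were Srsf6 (0.32 ± 0.18), Hnrnpl (0.47 ± 0.31) and Sf3b6 (-0.29 ± 0.21), and for IL-12 against IFNa/b Sf3b3 (-0.45 ± 0.22), Prpf8 (-0.45 ± 0.26) and Hnrnpul2 (0.30 ± 0.19). Sf3b6 measured 6769.5, 5645 and 6623 with IFNa/b and 7310.3 to 8592 with Ag-B7 alone. Hnrnpul2 measured 1756, 2045 and 2369.9 with IL-12 and 1616 to 1688 with IFNa/b. These groups did not overlap, but the differences were not called.

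Against naive cells, 21 members rose and 1 fell with IL-12 at 48 h (24.8% and 34% of all genes, 58.8% either way), and 25 rose and 2 fell with IFNa/b (25.3% and 33.1%, 58.4% either way). These comparisons share the naive arrays with that of Ag-B7 alone. Srsf1 differed by 3.14 ± 0.28 with IL-12 and 3.33 ± 0.28 with IFNa/b, Prpf31 by 2.76 ± 0.32 and 2.89 ± 0.32, and Hnrnpll by 2.47 ± 0.24 and 2.78 ± 0.24. Snrpb2 fell by 2.01 with IL-12 (SE 0.43) and by 1.70 with IFNa/b (SE 0.43). Hnrnpa1 was called lower with IFNa/b (-0.62 ± 0.25, adjusted p = 0.0448), with overlapping arrays, but the difference was 0.0041 with median centring and 1.24 with spike-in scaling. Snrpb2 was at -0.44 with IL-12 and 0.15 with IFNa/b under spike-in scaling, and was not called there. Hnrnpab rose by 0.50 ± 0.19 and 0.47 ± 0.19, and Srsf6 (0.62 ± 0.20) and Prpf8 (0.69 ± 0.26) rose with IFNa/b.

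On the single arrays with IL-12 or IFNa/b at 24 h and 72 h, few members were past 2-fold from the Ag-B7 array of that time. At 24 h, 0 members were past 2-fold with IL-12 (3.42% of all genes, 2.15% higher and 1.27% lower) and 1 with IFNa/b (2.9%, 1.69% higher and 1.21% lower), the pseudogene Snrp1c-ps2 (-1.15). At 72 h, Srsf3 was past 2-fold lower with IL-12 (-1.13, 2169 against 4793 units; 9.36% of all genes were past 2-fold, 5.22% higher and 4.14% lower). Its IL-12 array at 24 h was also the lower one (4692 against 8228), while at 48 h the IL-12 arrays, 6278, 6061 and 6049, lay within the Ag-B7 range of 4508 to 7745. With IFNa/b at 72 h, Snrpa1 was past 2-fold higher (1.14, 2079 against 919.9 units). Of all genes, 7.5% were past 2-fold there, 3.93% higher and 3.57% lower. Differences at 72 h were positive for 13 of 51 members with IL-12 (median -0.20, all genes -0.02). With IFNa/b they were positive for 35 of 51 (median 0.11, all genes -0.04). These differences between single arrays were not tested.

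The TSA array was below all 4 Ag-B7 arrays of 48 h for 27 of the 51 members (24.3% of all genes), among them 16 of the 27 members that had risen (50.7% of all genes that had). It was above the highest of the 3 other arrays at 72 h for 25 of the 51 members (34.7% of all genes). For 12 it was below the lowest of them (32% of all genes). Against the Ag-B7 array at 72 h, 6 members were more than 2-fold higher with TSA and 1 more than 2-fold lower, where 7.09% and 8.97% of all genes were. The 6 were Prpf31 (1.41), Prpf19 (1.39), Srsf2 (1.38), Snrpb (1.30), Sf3b5 (1.27) and Sf3b3 (1.06). Prpf19 measured 5012 units with TSA, 1877 with Ag-B7, 1819.9 with IL-12 and 2154 with IFNa/b at 72 h, and 3771 to 5509.8 with Ag-B7 at 48 h. Srsf2 measured 28589 with TSA and 10952, 12129 and 10296 on the other 72 h arrays, and Snrpb 30733 against 12416, 11756 and 12914. The TSA value was the high one in each case. Sf3b5 measured 8021 with TSA and 3296, 3499.8 and 3665 without, and Prpf31 2865 against 1050.2, 821 and 1120.3. Set against the highest of the 3 other arrays at 72 h, 5 members (Prpf19, Prpf31, Sf3b5, Snrpb and Srsf2) were still past 2-fold, against 2.23% of all genes, and Sf3b3 was 0.74 above on the log2 scale.

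Hnrnph3 was the member past 2-fold lower with TSA, at 457 units against 1036 with Ag-B7, 725 with IL-12 and 883 with IFNa/b. The next lowest were Hnrnpl (-0.95), Srsf5 (-0.62), Hnrnpa1 (-0.57) and Hnrnpu (-0.57). Further probe sets did not always give the same value with TSA. A second Hnrnpu set, below the filter, gave 0.60. For Sf3b1 a second set gave -1.21 and the one used -0.56. Hnrnpl measured 1068 with TSA and 1856 to 2113 on the other 72 h arrays. No member was past 2-fold below the lowest of the 3 other arrays (3.73% of all genes). Of the 27 members that TSA left below all their Ag-B7 values at 48 h, Snrpa1 measured 1526, Srsf1 1294 and U2af1 7251. TSA was given on 1 array, so these values have no replicate check, and the comparisons of TSA, IL-12 and IFNa/b at 72 h share the 1 Ag-B7 array.

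**Figure D5:**
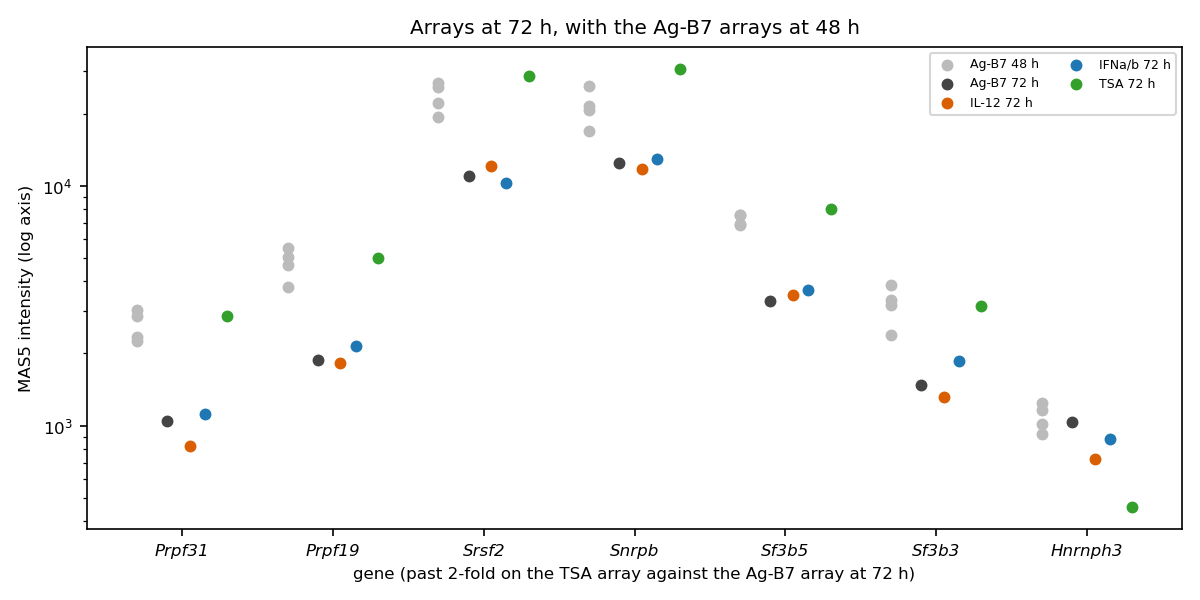
MAS5 intensity (log axis) of the 7 members past 2-fold on the TSA array against the Ag-B7 array at 72 h, on the 4 Ag-B7 arrays at 48 h and the 4 arrays at 72 h, each point 1 array. For the first 6 genes the TSA point is the highest of the 72 h points, and for Hnrnph3 it is the lowest (457).

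Other genes of the splicing machinery, listed by function, changed in both directions at 48 h in Ag-B7 cells. Of all genes tested, 26.1% rose and 35.6% fell in that comparison (median -0.23). Of 33 other spliceosome components, 16 rose and 3 fell (median 0.52). Lsm2 (2.66 ± 0.31) and Lsm7 (2.04 ± 0.24), parts of the ring on U6 RNA, and Snrnp25 (1.93 ± 0.20), of the minor spliceosome, rose most. Sf1, which binds the branch point before U2 snRNP, fell by 1.26, and the helicase genes Dhx15 and Ddx46 fell by 0.99 and 0.85. Of 31 other regulators and RNA-binding proteins, 16 rose and 6 fell (median 0.57), led by Tardbp (2.00 ± 0.20), Celf1 (1.57 ± 0.41) and Tra2b (1.38 ± 0.20). Cirbp, the cold-inducible RNA-binding protein, fell by 1.95, the helicase Ddx5 by 1.72 and Ptbp2 by 1.44. Of 24 kinases, assembly and exon junction factors, 11 rose and 3 fell (median 0.27). Prmt1 (2.51 ± 0.25), an arginine methyltransferase, Alyref (2.37 ± 0.20), an mRNA export adaptor, and Wdr77 (1.77 ± 0.38), a cofactor of Sm protein methylation, rose most. Clk1, a kinase of SR proteins, fell by 2.42 (SE 0.28), its relative Clk4 by 1.52 and Acin1 by 0.58. None of these genes was called between the treatments at 48 h, where 0.43% to 0.94% of all genes were. From 48 to 72 h, 14, 11 and 13 genes of the 3 lists were lower and 1, 5 and 3 higher. The shares over all genes were 15.9% lower and 20.3% higher.

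The genes outside the list whose log2 values followed the mean of the members most closely over the 20 arrays were Cct3 (Pearson r = 0.970), Ebna1bp2 (0.968), Dhx9 (0.967), Slbp (0.966) and Ranbp1 (0.965). Over the 17 stimulated arrays the r values were 0.947, 0.949, 0.950, 0.943 and 0.965. These describe genes picked as the closest of all tested, over arrays that share treatments and scaling. The mean of the members minus the mean of all genes was 0.84 to 1.45 on naive arrays and 1.24 to 2.25 on stimulated arrays on the log2 scale.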

How the data were processed

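The authors deposited 1 MAS5 signal intensity for each of 12488 probe sets on 20 single-colour arrays. The software name MAS5 comes from the submitters' processing notes, while a version is not given in the sources used here. These deposited intensity values had a trimmed mean of 1000.46 to 1000.74 on every array, so differences are relative to an array's total signal. Only probe sets with 1 symbol in the platform annotation were named. A gene was kept when its brightest probe set exceeded the 40th percentile of intensity on 3 or more of the 13 replicated arrays, which left 6279 genes. Values were taken as log2(intensity + 46.4), the pseudocount being the median over arrays of the 20th percentile. Group means of the 13 arrays were fitted in limma 3.58.1 (R 4.3.3) with a variance trend, and p-values were two-sided and adjusted by Benjamini-Hochberg over all genes. Single arrays were compared by a difference of 2-fold, with no test. The additive fit of time used 16 arrays and was chosen after the data had been seen. Both fits were tested on simulated data.

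The members and gene lists were chosen with earlier results of these data known. Members named in full were the 4 largest rises and falls per class, the 3 smallest p-values in each comparison at 48 h, the largest differences with TSA, members below the filter, the brightest and dimmest of each class, and those whose probe sets disagreed past 2-fold, with 3 rises and 3 falls per pathway list and the 5 genes most like the members' mean. Other members are named for completeness, chosen after their values were seen. Same-numbered Ag-B7 and IL-12 arrays at 48 h deviated together from their group means (r = 0.28, 0.28 and 0.28), which pairs them by the rule used (every r above 0.1); for the other pairs of groups this did not hold. Alternatives were other pseudocounts (16 and 200), filters, scalings, variance models, probe set means, a replicate block and leaving out each array. The p-values measure the spread between these arrays only, and the number of arrays limits the precision.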

Additional observations from a re-analysis of the deposited data

How the results depend on the processing

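For Ag-B7 against naive cells, 20 of the 29 called members, all of them higher, were called in the same direction under every alternative, and 27 kept their direction. Median centring and spike-in scaling raised the median of all genes against naive cells, so they could hardly turn a rise. Leaving out 1 array gave 24 to 31 calls for Ag-B7, 22 to 28 for IL-12 and 23 to 29 for IFNa/b against naive, 0 in each comparison at 48 h, 23 to 26 members past 2-fold for Ag-B7 at 24 h against naive, 11 to 15 for Ag-B7 at 72 h against 48 h, 1 each time in the fit of 24 h against 48 h and 23 to 29 in that of 72 h against 48 h. With the replicate number as a block, 29, 25 and 29 members were called for Ag-B7, IL-12 and IFNa/b against naive and 0 in each comparison at 48 h, so the pairing moved no count by over 1.5 times. Median centring gave 38 calls for IL-12 against naive (22 before; 52.8% of all genes), 39 past 2-fold for Ag-B7 at 24 h against naive (24 before; 48.6%), 22 for Ag-B7 at 72 h against 48 h (13 before; 17.7%) and 7 in the fit of 24 h against 48 h (4 before; 11.9%). Spike-in scaling, which rests on 9 control probe sets, gave 49, 48 and 49 calls for Ag-B7, IL-12 and IFNa/b against naive (65%, 55.9% and 65.5% of all genes), 49 past 2-fold for Ag-B7 at 24 h (69.4%), 22 for Ag-B7 at 72 h against 48 h (17.7%), 0 for IL-12 (11.8%) and 7 for IFNa/b (17.4%) against Ag-B7 at 72 h, and 1 in the fit of 24 h against 48 h (4%). Without a variance trend that fit called 2. Signs turned for Hnrnpa1 with spike-in scaling (0.99 for Ag-B7 and 1.24 for IFNa/b against naive) and median centring (0.0041 for IFNa/b), for Snrpb2 with spike-in scaling (0.15 for IFNa/b), and for Prpf19 with the mean of its probe sets (-0.44, -0.30 and -0.46 for Ag-B7, IL-12 and IFNa/b). The cause of these differences was not tested. Leaving out arrays in the single-array comparisons and every setting of the time fit were added after the data had been seen.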
